A study of Canis lupus familiaris with 16 samples.

Results

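The ATP-binding cassette (ABC) transporter genes were followed in canine hepatocellular carcinoma cells given a kinase inhibitor. The members were the genes whose symbol consists of ABC, a subfamily letter from A to G and a number. This rule found 44 of the 39543 gene symbols counted, with 11 genes in subfamily A, 9 in B, 11 in C, 4 in D, 1 in E, 3 in F and 5 in G. Family members under other symbols, such as CFTR, TAP1 and TAP2, are given with the partner genes at the end. The cells were 4 lines grown from hepatic tumours of dogs and named KU-cHCC-001, KU-cHCC-002, then KU-cHCC-004 and lastly KU-cHCC-005. Each line received for 24 h sorafenib at 30 µM, toceranib at 15 µM, DPBS (the buffered saline named as vehicle of toceranib) or DMSO (the vehicle of sorafenib), 1 RNA-seq library per line and treatment. Sorafenib is an inhibitor of RAF and receptor tyrosine kinases, and toceranib inhibits receptor tyrosine kinases and is used in dogs. No allele or transgene is named for any line, and all were grown in the same serum-supplemented medium.

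ABC proteins bind and split ATP to move substrates across membranes. In liver cells they load cholesterol and phospholipid onto lipoproteins, secrete bile salts and phosphatidylcholine across the canalicular membrane, and expel drugs and their conjugates. Others serve mitochondria, peroxisomes and lysosomes, and the E and F subfamilies lack membrane spans and act on ribosomes. By these roles the members were 15 lipid transporters, 10 exporters of drugs and conjugates, 3 transporters of the bile canaliculus, 3 concerned with ATP release or potassium channels, 4 of mitochondria, 3 of peroxisomes, 2 of lysosomes and 4 that act on ribosomes.

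The libraries held 19667162 to 20312123 counts with sorafenib, 12008366 to 21943572 with toceranib, 16349457 to 17959057 with DPBS and 17055803 to 19917958 with DMSO. ABC genes took 0.144 to 0.211% of these counts with sorafenib, 0.130 to 0.181% with toceranib and 0.114 to 0.186% with DMSO. Of a list of 11 hepatocyte markers in the files, ALB reached at most 0.424 CPM (the count scaled to the TMM library size) in any library, and SERPINA1 had no read. APOB, the structural protein of very low density lipoprotein, was present, with 0.441, 3.34, 22.8 and 25.2 CPM with sorafenib, 0.0844, 51.4, 74.0 and 138 CPM with toceranib, and 0.419, 8.68, 50.3 and 30.6 CPM with DMSO in the order of the line numbers. It made up most of the list's sums outside KU-cHCC-001, which were 1.06 to 25.9 CPM with sorafenib, 2.70 to 142 CPM with toceranib and 2.83 to 51.4 CPM with DMSO. A list of 9 bile duct and progenitor markers summed to 9106 to 13936 CPM in DMSO of 3 lines and to 1218 CPM in KU-cHCC-001. The DPBS libraries went against their labels, as set out below for ABC genes. They were kept out of the main fit and entered only some alternative fits. A list of 10 stromal markers summed with toceranib to 870 CPM in KU-cHCC-005, 233 CPM in KU-cHCC-004, 101 CPM in KU-cHCC-001 and 23.8 CPM in KU-cHCC-002, against 19.0 to 212 CPM with DMSO. COL3A1, one of its defining genes, was at 51.7 CPM in the toceranib library of KU-cHCC-005, at 6.54 CPM in that of KU-cHCC-004, and at 0 in every sorafenib and DMSO library.

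Of the 44 genes, 36 reached 1 CPM in at least 1 of the 12 sorafenib, toceranib and DMSO libraries, and 20 did so in all 12. The other 8 stayed under 1 CPM throughout. They were ABCA6, ABCA9, ABCB5, ABCC9, ABCC12, ABCD2, ABCG5 and ABCG8, of which ABCB5 and ABCD2 had no read in any library. ABCG5 and ABCG8 together form the sterol exporter of the hepatocyte canalicular membrane, and neither exceeded 0.549 CPM in these 12 libraries. A count of 0 allows up to 3 reads, or 0.127 to 0.254 CPM depending on the library, counting error alone. DMSO libraries held 26 members at 1 CPM or more in both KU-cHCC-001 and KU-cHCC-005, and 24 in each other line, and 21 members passed that level in all 4.

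DMSO levels of the ribosome-associated genes and of ABCD3 differed little between the lines. ABCF1, a translation factor, averaged 249 ± 31.2 CPM in DMSO libraries (SD, n = 4), and the ribosome recycling factor ABCE1 averaged 187 ± 34.9 CPM. ABCD3, which carries bile acid precursors and branched fatty acids into peroxisomes, averaged 160 ± 34.1 CPM. Levels of different genes cannot be ranked here because the counts are not divided by transcript length. ABCB1, the P-glycoprotein that expels many drugs, was less even, with DMSO levels of 202 CPM in KU-cHCC-001, 126 CPM in KU-cHCC-004, 50.6 CPM in KU-cHCC-005 and 46.2 CPM in KU-cHCC-002. With 0.5 CPM added, the highest DMSO line lay at least 4-fold above the lowest for 9 of the 33 members that passed the filter on low counts, against 17.4% of all 14938 genes that passed it. With 1 DMSO library per line, these differences between lines have no test.

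**Figure D1:**
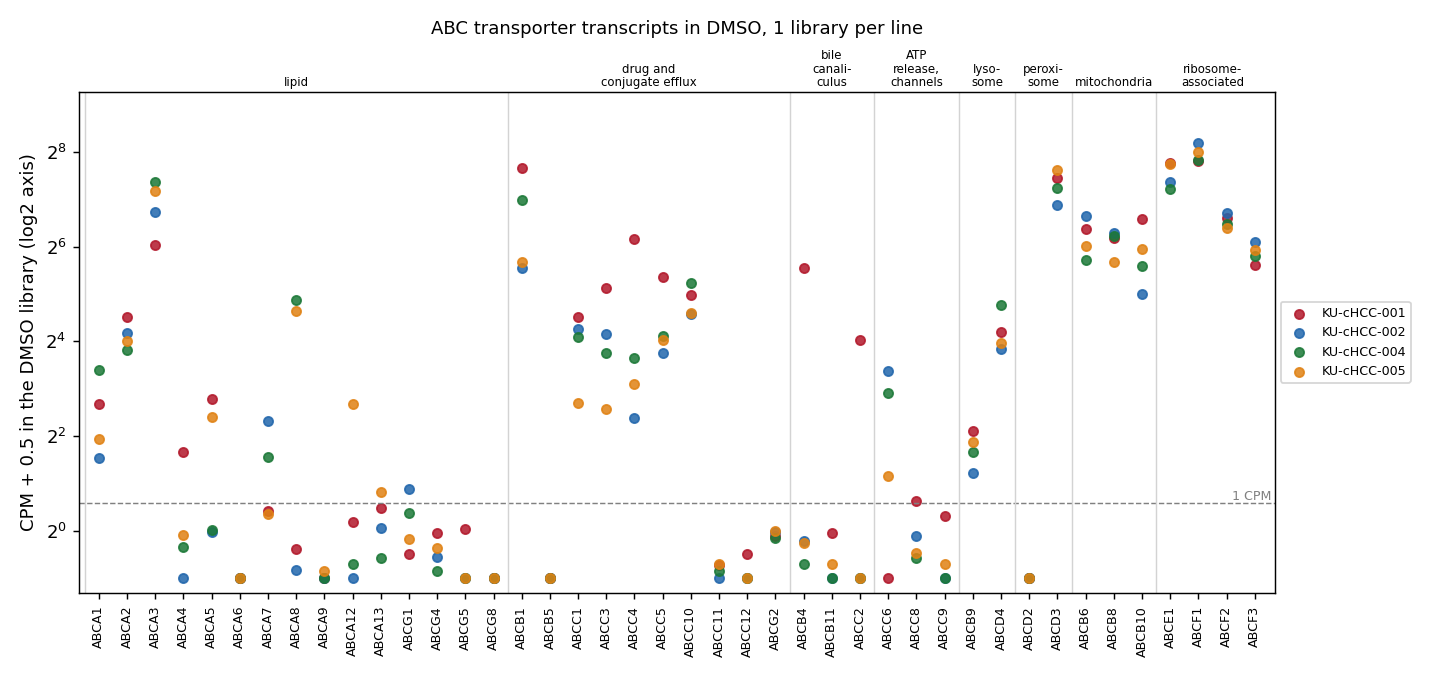
Levels of 42 of the 44 ABC genes in the DMSO libraries on a log axis of CPM with 0.5 added, grouped by role, with 1 point per cell line. The ribosome-associated genes show 4 points close together, while ABCB4 and ABCC2 show 1 point, KU-cHCC-001, far above the other lines.

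Members that marked a line were those at least 4-fold higher in every one of its sorafenib, toceranib and DMSO libraries than in any such library of another line. There were 3. ABCB4, the canalicular floppase that puts phosphatidylcholine into bile, had 88.0, 54.9 and 46.6 CPM with sorafenib, toceranib and DMSO in KU-cHCC-001, and 0.0545 to 1.19 CPM in the other lines. ABCC2, the canalicular exporter of bilirubin glucuronides and drug conjugates, had 5.69, 43.3 and 15.8 CPM with sorafenib, toceranib and DMSO in KU-cHCC-001, whereas no other line exceeded 0.298 CPM. Both genes of the canalicular membrane were thus high in the line with the lowest sum of bile duct markers. ABCA12, known for filling lipid granules of the epidermis, had 16.3, 8.65 and 5.92 CPM with sorafenib, toceranib and DMSO in KU-cHCC-005, whereas no other line exceeded 0.629 CPM. The third canalicular gene, the bile salt export pump ABCB11, had at most 1.10 CPM in any of the 12 libraries. ABCB4 lies next to ABCB1 in the RefSeq gene order. ABCB1 was also highest in KU-cHCC-001, with 139, 138 and 202 CPM with sorafenib, toceranib and DMSO. The next line had 65.5, 125 and 126 CPM, and ABCB1 had at least 29.7 CPM in each of the 12 libraries.

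The DPBS libraries did not carry these marks as labelled. The DPBS library with the label KU-cHCC-001 had 0.161 CPM of ABCB4 and 0.107 CPM of ABCC2, far below the other libraries of that line. ABCA12 was at 8.00 CPM in DPBS of KU-cHCC-005 but also at 8.95 CPM in DPBS of KU-cHCC-002. Other members paired the DPBS libraries in the same way. The glutathione conjugate exporter ABCC1 had 40.3 CPM in DPBS of KU-cHCC-001 and 40.7 CPM in DPBS of KU-cHCC-004, but 7.65 CPM for KU-cHCC-002 and 6.39 CPM for KU-cHCC-005. ABCA8, chosen after its values were seen, had 14.0 CPM in DPBS of KU-cHCC-002 and 16.1 CPM in DPBS of KU-cHCC-005, but 0 CPM for KU-cHCC-001 and 0.178 CPM for KU-cHCC-004. The DMSO library of KU-cHCC-004 had 28.9 CPM of ABCA8 and that of KU-cHCC-002 had 0.0603 CPM.

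**Figure D2:**
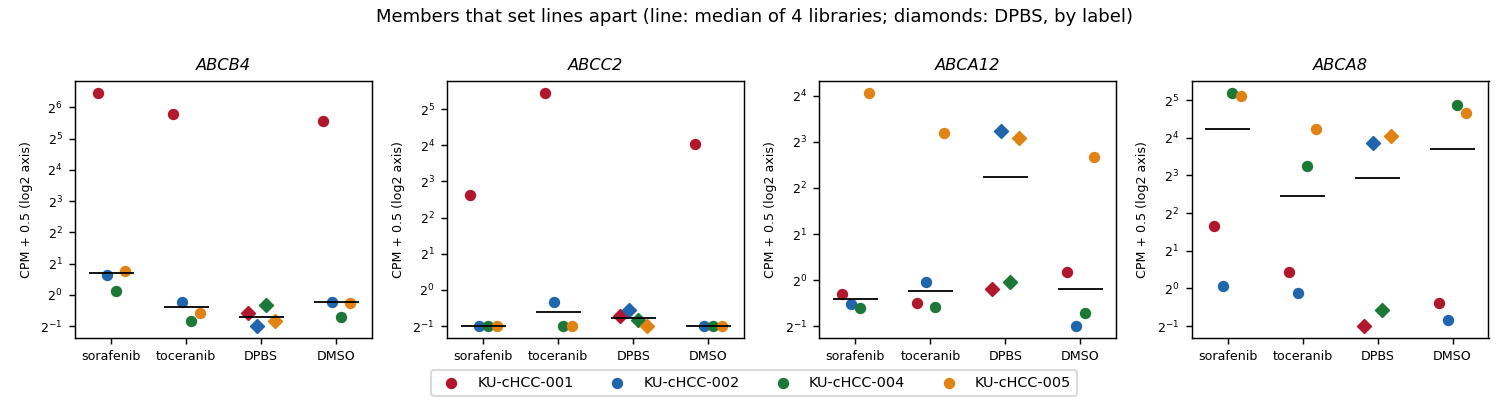
CPM of ABCB4, ABCC2, ABCA12 and ABCA8 in all 16 libraries by labelled line, with sorafenib, toceranib, DPBS and DMSO in separate marks. ABCB4 and ABCC2 are high in KU-cHCC-001 with sorafenib, toceranib and DMSO but not with DPBS, and ABCA12 is high in DPBS labelled KU-cHCC-002 as well as KU-cHCC-005.

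Over the 12 libraries the cell line took a median of 49.3% of the variance of a member's log2 level and the treatment 31.7%, against 42.4% and 28.6% over all tested genes. Line took more than 50% for 16 of the 33 tested members, against 41.9% of all tested genes.

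Sorafenib against DMSO asked which members the drug changed. The exporters ABCC5 and ABCC4, the phosphatidylcholine floppase ABCB4, the mitochondrial transporter ABCB10 and the lipid transporter ABCA5 rose, and no member fell at an adjusted p under 0.05. The test was edgeR's quasi-likelihood test with the line as a block, adjusted by Benjamini-Hochberg over all 14938 genes. It called 5 of 33 members higher, against 9.59% of all genes, and 0 lower, against 10.1%. At an unadjusted p under 0.05, 9 members were higher and 2 lower, and DESeq2 called 7 higher and 2 lower at its adjusted p. The median log2 fold change was 0.31 over members, 22 of 33 being positive, and -0.02 over all genes. Counted by line, 14 members were higher in 4 of 4 lines (26.3% of all genes) and 5 were lower in 4 of 4 (24.5%). The replicates are different lines, and the block takes out the differences in level between them. The p-values rest on the spread left after line and treatment, pooled over these sorafenib, toceranib and DMSO libraries. Among the markers of other cell types, 3 of the 9 of the bile duct list fell with sorafenib, CLDN4 (-1.06) and SPP1 (-3.01) among them, and the leukocyte list's CD68 (2.33) rose. Of the hepatocyte list 2 genes were tested, and FGA (-3.78, at most 2.10 CPM in DMSO) fell while APOB did not pass (-0.81, edgeR adjusted p = 0.345). None of the 5 stromal and 2 endothelial markers tested was called. The bile duct list summed to 538 to 9692 CPM with sorafenib and 1218 to 13936 CPM with DMSO, and the part of these markers in the results was not tested. In bulk RNA, fewer cells of a type and less RNA per cell cannot be told apart.

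Toceranib against DMSO used a vehicle that is not the one labelled for toceranib, so drug and vehicle cannot be told apart in it. ABCA7, ABCG2, ABCC6, ABCA5, ABCC5 and ABCD4 rose, and no member fell. The 6 called of 33 members stand against 7.46% of all genes called, and they were 6 higher, against 4.31%, and 0 lower, against 3.15%. With upper-quartile scaling the members' counts were equal, while the split over all genes moved to 833 higher and 281 lower, against 644 and 471 with TMM. At an unadjusted p under 0.05, 13 members were higher and 4 lower, and DESeq2 called 9 higher and 2 lower. The median log2 fold change was 0.54 over members, 23 of 33 being positive, and -0.01 over all genes. Higher in 4 of 4 lines were 12 members (15.4% of all genes), and lower in 4 of 4 were 2 (14.7%). Of the 9 bile duct markers, EPCAM (0.95) and SPP1 (2.84) rose with toceranib, and the list summed to 3484 to 11041 CPM with toceranib, against 1218 to 13936 CPM with DMSO. No tested marker of the hepatocyte, stromal, leukocyte or endothelial lists was called, among them APOB (1.52, edgeR adjusted p = 0.106) and the stromal COL1A1 (5.11, adjusted p = 0.0605). The part of these markers in the results was not tested.

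Each member called against DMSO was higher in 4 of 4 lines, but most of these calls depended on which lines were fitted. Over all genes, leaving out KU-cHCC-002, KU-cHCC-004 or KU-cHCC-005 left 915, 596 and 783 calls for sorafenib, against 2935 with every line. For toceranib it left 7, 4 and 1, against 1115. ABCC5 with sorafenib held without each line in turn, at an adjusted p of 1.34e-04 to 0.00617. ABCA5, ABCB10, ABCB4 and ABCC4 with sorafenib kept their direction but lost the call without KU-cHCC-002, without KU-cHCC-004 or without KU-cHCC-005, where the largest adjusted p was 0.187, 0.260 and 0.135. All 6 toceranib calls held without KU-cHCC-001, and their fold changes stayed positive without each line in turn. None held without KU-cHCC-002 (adjusted p of 0.0929 to 0.157), without KU-cHCC-004 (0.0785 to 0.135), without KU-cHCC-005 (0.139 to 0.207) or without the toceranib library of KU-cHCC-005 alone (0.0516 to 0.112).

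**Figure D3:**
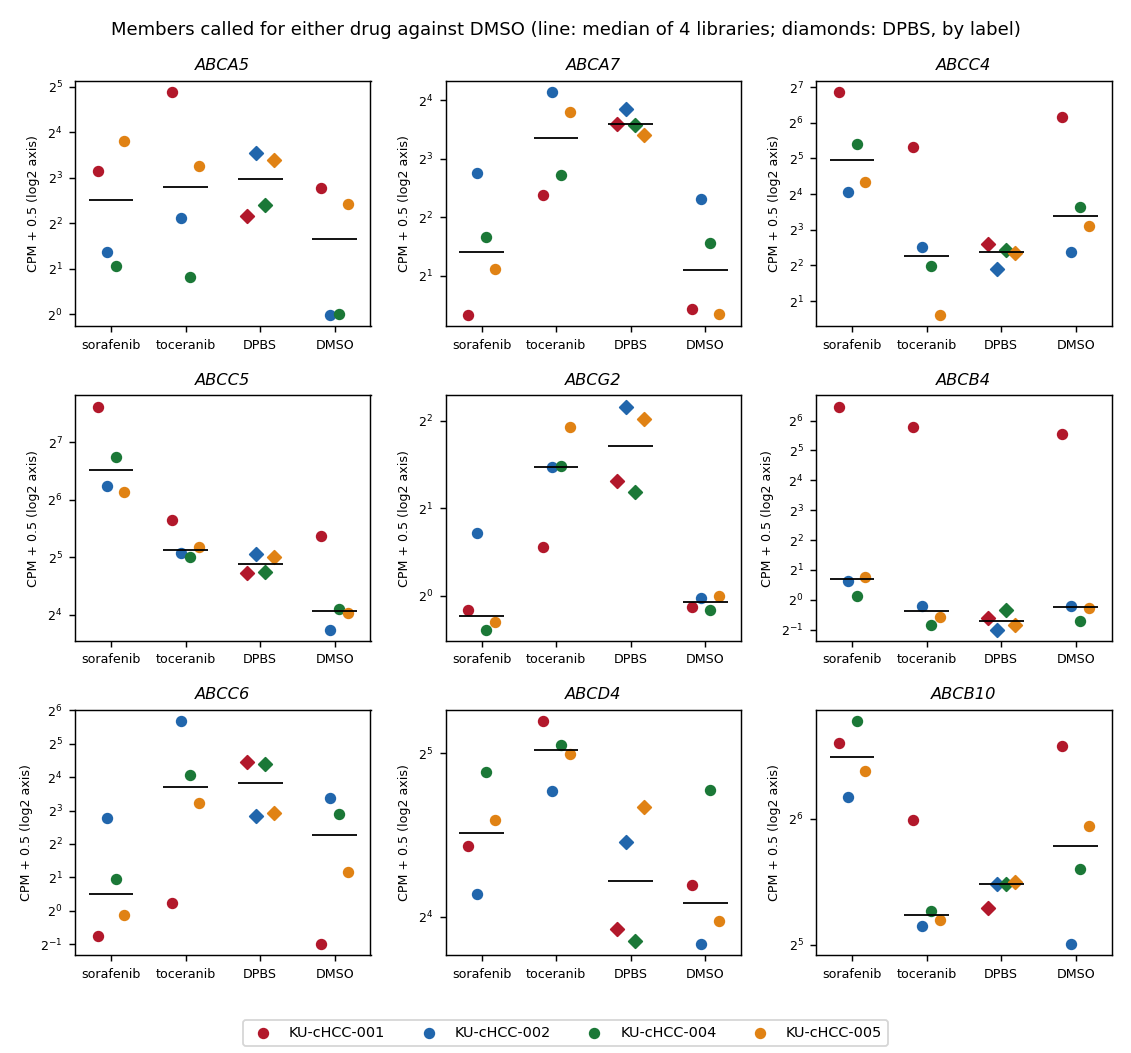
CPM of the members called for sorafenib or toceranib against DMSO, on log axes with 0.5 added, in the order sorafenib, toceranib, DPBS (diamonds) and DMSO, with 1 mark per labelled line and a bar at the median. The 4 sorafenib points of ABCC5 lie above all its DMSO points, and the DPBS points of ABCA7 and ABCG2 lie near their toceranib points.

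The exporters of drugs and conjugates are given first, with the 4 values of a treatment always in the order of the line numbers, KU-cHCC-001 to KU-cHCC-005. ABCC5, which exports cyclic nucleotides and folate analogues, had 196, 75.0, 107 and 69.5 CPM with sorafenib, 49.4, 33.3, 31.4 and 35.8 CPM with toceranib, and 40.7, 12.9, 16.7 and 15.8 CPM with DMSO. Every sorafenib library lay above every toceranib and DMSO library, and ABCC5 was the only member whose sorafenib and DMSO values did not overlap with sorafenib higher, against 6.57% of all genes. No member had all sorafenib below all DMSO values (5.44% of all genes). The means were 112 ± 58.5 CPM with sorafenib, 37.5 ± 8.13 CPM with toceranib and 21.5 ± 12.9 CPM with DMSO (SD, n = 4 each). Sorafenib minus DMSO gave 2.39 ± 0.21 as log2 fold change (SE, edgeR adjusted p = 1.73e-04), with 2.10 to 2.64 in the single lines. Toceranib minus DMSO gave 0.94 ± 0.21 (edgeR adjusted p = 0.0277), with DMSO of KU-cHCC-001 inside the toceranib range. The DPBS libraries had 25.98, 32.9, 26.4 and 31.7 CPM, overlapping the toceranib range.

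ABCC4, an exporter of cyclic nucleotides, prostanoids and bile acids, had 115, 16.1, 41.9 and 19.6 CPM with sorafenib, 39.4, 5.19, 3.43 and 1.02 CPM with toceranib, and 71.5, 4.70, 11.99 and 8.07 CPM with DMSO. KU-cHCC-001 was the highest line with sorafenib, toceranib and DMSO, and within every line sorafenib was above DMSO. Sorafenib minus DMSO gave 1.38 ± 0.41 (SE, edgeR adjusted p = 0.0369) and toceranib minus DMSO gave -1.15 ± 0.43 (adjusted p = 0.110). ABCG2, the breast cancer resistance protein, was scarce, with 0.397, 1.15, 0.265 and 0.311 CPM with sorafenib, 0.971, 2.27, 2.29 and 3.31 CPM with toceranib, and 0.419, 0.482, 0.396 and 0.498 CPM with DMSO. These are 23 to 42 reads in the toceranib libraries and 7 to 9 reads in the DMSO libraries, and the 2 groups did not overlap. ABCG2 rose by 2.22 ± 0.49 on the log2 scale with toceranib (SE, edgeR adjusted p = 0.0285), against 0.12 ± 0.52 for sorafenib minus DMSO (adjusted p = 0.895). Without the toceranib libraries ABCG2 would not have passed the filter on low counts. Its calls as higher with toceranib, also against sorafenib, are therefore not independent of that filter. DPBS libraries had 1.99, 3.97, 1.78 and 3.56 CPM of ABCG2, around the toceranib values. Members above every DMSO library in all toceranib libraries were ABCA7 and ABCG2, against 4.0% of all genes, and no member lay below every DMSO library in all of them (3.52%).

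The other exporters did not pass against DMSO. ABCB1 had 139, 29.7, 65.5 and 49.0 CPM with sorafenib, 138, 121, 125 and 116 CPM with toceranib, and 202, 46.2, 126 and 50.6 CPM with DMSO. Toceranib libraries lay in a narrow range, while sorafenib libraries were below DMSO in each line. Sorafenib minus DMSO gave -0.57 ± 0.31 (SE, edgeR adjusted p = 0.209) and toceranib minus DMSO gave 0.55 ± 0.31 (adjusted p = 0.277). The same difference passed in a fit of the 8 sorafenib and DMSO libraries alone (-0.57 ± 0.15, edgeR adjusted p = 0.0196), which called 9 of 28 members higher (18.3% of its genes) and 3 lower, ABCB1 and ABCC6 among them (18.2%). ABCC1 had 31.7, 38.7, 31.4 and 11.8 CPM with sorafenib, 10.3, 30.8, 7.63 and 2.97 CPM with toceranib, and 22.3, 18.7, 16.6 and 5.97 CPM with DMSO. It was above DMSO in each line with sorafenib (0.83 ± 0.31, edgeR adjusted p = 0.0855) and passed in the 8 libraries (adjusted p = 0.00496). ABCC3, which exports conjugates and bile acids across the basolateral membrane, had 28.7, 17.8, 8.54 and 6.63 CPM with sorafenib, 38.9, 49.7, 16.5 and 9.07 CPM with toceranib, and 34.4, 17.2, 13.0 and 5.47 CPM with DMSO. It followed the line more than the drug, with KU-cHCC-005 lowest with sorafenib, toceranib and DMSO, and neither drug passed against DMSO (adjusted p = 0.668 with sorafenib and 0.0975 with toceranib). ABCC10, an exporter of lipophilic drugs, had 26.2, 32.8, 46.97 and 32.6 CPM with sorafenib, 31.5, 53.5, 44.8 and 50.3 CPM with toceranib, and 31.1, 23.4, 37.3 and 23.7 CPM with DMSO. Toceranib was above DMSO in each line, by little in KU-cHCC-001, and neither drug passed (edgeR adjusted p = 0.504 with sorafenib and 0.0888 with toceranib). ABCC11 reached 1 CPM in 2 libraries, 2.95 CPM in sorafenib of KU-cHCC-005 and 1.98 CPM in toceranib of KU-cHCC-001.

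In the bile canaliculus group, ABCB4 is the one called. Beside the high line KU-cHCC-001, its low lines had 1.05, 0.584 and 1.19 CPM with sorafenib, 0.358, 0.0545 and 0.170 CPM with toceranib, and 0.362, 0.113 and 0.332 CPM with DMSO. Sorafenib was above DMSO in each of the 4 lines, though in the low lines the DMSO libraries had 6 reads or fewer. The fold change was 1.47 ± 0.35 for sorafenib minus DMSO (SE, edgeR adjusted p = 0.0154) and -0.01 ± 0.35 for toceranib minus DMSO (adjusted p = 0.991). Without the sorafenib libraries of the low lines ABCB4 would not have passed the filter on low counts. Its calls as higher with sorafenib, also against toceranib, are therefore not independent of that filter. ABCC2 did not pass the filter on low counts because reads were almost confined to KU-cHCC-001. There it had 129 reads with sorafenib, 1025 with toceranib and 302 with DMSO, 1 library each, so these levels have no replicate check. ABCB11 had 25, 3, 3 and 13 reads with sorafenib, 7, 3, 5 and 8 with toceranib, and 9, 0, 0 and 2 with DMSO. Sorafenib was higher in 4 of 4 lines at these low counts, and the test did not pass (1.85 ± 0.74, edgeR adjusted p = 0.0999).

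Among the lipid transporters, ABCA5, a protein of endosomes and lysosomes, had 8.33, 2.09, 1.59 and 13.6 CPM with sorafenib, 28.9, 3.81, 1.25 and 9.07 CPM with toceranib, and 6.34, 0.482, 0.509 and 4.81 CPM with DMSO. Both drugs were above DMSO in each line, while the ranges of the groups overlapped because KU-cHCC-001 and KU-cHCC-005 were high with sorafenib, toceranib and DMSO. The fold changes were 1.36 ± 0.42 for sorafenib minus DMSO (SE, edgeR adjusted p = 0.0427) and 1.86 ± 0.42 for toceranib minus DMSO (adjusted p = 0.0306). The 2 comparisons share the DMSO libraries. DPBS libraries had 3.97, 11.1, 4.73 and 9.89 CPM of ABCA5, the lowest with the label KU-cHCC-001.

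ABCA7, a relative of ABCA1 that moves phospholipid, had 0.749, 6.23, 2.65 and 1.66 CPM with sorafenib, 4.69, 17.1, 6.10 and 13.4 CPM with toceranib, and 0.839, 4.46, 2.43 and 0.774 CPM with DMSO. All toceranib libraries lay above all DMSO libraries, while sorafenib and DMSO overlapped. ABCA7 rose by 2.46 ± 0.43 with toceranib (SE, edgeR adjusted p = 0.0170), the largest fold change of a called member in that comparison, and gave 0.32 ± 0.41 with sorafenib (adjusted p = 0.620). DPBS libraries had 11.6, 13.9, 11.5 and 10.1 CPM of ABCA7, also above all DMSO libraries.

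The cholesterol exporters ABCA1 and ABCG1, which respond to oxysterols in many cells, varied by line. ABCA1, which loads apolipoprotein A1, had 4.14, 2.29, 5.25 and 2.80 CPM with sorafenib, 2.53, 29.9, 9.76 and 9.83 CPM with toceranib, and 5.87, 2.41, 10.0 and 3.32 CPM with DMSO. With sorafenib it was below DMSO in each line (-0.55 ± 0.63, edgeR adjusted p = 0.575). With toceranib it was above DMSO in KU-cHCC-002 as well as KU-cHCC-005 and below it in the other lines (1.19 ± 0.69, adjusted p = 0.284). ABCG1, which loads high-density lipoprotein, had 1.68, 0.797, 1.91 and 1.19 CPM with sorafenib, 1.10, 7.39, 1.14 and 2.97 CPM with toceranib, and 0.210, 1.33, 0.792 and 0.387 CPM with DMSO. Toceranib was higher in 4 of 4 lines without passing (2.12 ± 0.64, edgeR adjusted p = 0.0638), and sorafenib in 3 of 4 (1.38 ± 0.65, adjusted p = 0.158). ABCA3, the phospholipid transporter of lung lamellar bodies, had 102, 126, 93.4 and 152 CPM with sorafenib, 94.6, 231, 173 and 201 CPM with toceranib, and 65.4, 105, 164 and 144 CPM with DMSO. Toceranib was above DMSO in each line (0.54 ± 0.23, edgeR adjusted p = 0.156), while sorafenib lay on either side of it (0.02 ± 0.23, adjusted p = 0.955).

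Of the genes of ATP release and potassium channels, ABCC6, which mediates ATP release from liver cells, had 0.0882, 6.28, 1.43 and 0.414 CPM with sorafenib, 0.676, 50.8, 16.2 and 8.82 CPM with toceranib, and 0, 9.82, 6.96 and 1.71 CPM with DMSO. KU-cHCC-002 was highest and KU-cHCC-001 lowest with sorafenib, toceranib and DMSO, and toceranib was above DMSO in each line. ABCC6 rose by 2.13 ± 0.43 with toceranib (SE, edgeR adjusted p = 0.0236), and sorafenib minus DMSO gave -1.40 ± 0.46 (adjusted p = 0.0549). DPBS libraries had 21.6, 6.70, 20.3 and 7.11 CPM, the highest with the label KU-cHCC-001 and the lowest with KU-cHCC-002. ABCC8, the sulphonylurea receptor, was scarce, with 15, 13, 0 and 1 reads with sorafenib, 35, 19, 5 and 8 reads with toceranib, and 20, 7, 3 and 4 reads with DMSO. These are at most 0.661 CPM with sorafenib, 1.48 CPM with toceranib and 1.05 CPM with DMSO, and neither drug passed against DMSO (edgeR adjusted p = 0.489 with sorafenib and 0.271 with toceranib). Its relative ABCC9, under 1 CPM throughout, had no read in any toceranib library.

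Among the mitochondrial members, ABCB10, an inner membrane transporter needed for haem synthesis in red cell precursors of mice, had 96.3, 71.6, 109 and 82.6 CPM with sorafenib, 62.9, 35.0, 38.0 and 36.3 CPM with toceranib, and 94.9, 31.6, 48.0 and 61.0 CPM with DMSO. KU-cHCC-001 gave nearly equal values with sorafenib and DMSO, and the other 3 lines were higher with sorafenib. ABCB10 rose by 0.68 ± 0.21 with sorafenib (SE, edgeR adjusted p = 0.0436), and toceranib minus DMSO gave -0.40 ± 0.21 (adjusted p = 0.241). ABCB6 and ABCB8 did not pass in any comparison.

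Among the peroxisomal members, ABCD3 had 128, 156, 216 and 197 CPM with sorafenib, 203, 215, 192 and 215 CPM with toceranib, and 175, 117, 151 and 196 CPM with DMSO. The ranges overlapped, toceranib was above DMSO in each line, and neither drug passed (edgeR adjusted p = 0.739 with sorafenib and 0.216 with toceranib).

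In lysosomes, ABCD4, which takes part in the release of vitamin B12 from that compartment, had 21.1, 17.1, 29.0 and 23.6 CPM with sorafenib, 36.2, 26.8, 32.7 and 31.4 CPM with toceranib, and 17.8, 13.7, 26.9 and 15.2 CPM with DMSO. Toceranib was the highest of the 3 treatments in each line. ABCD4 rose by 0.83 ± 0.18 with toceranib (SE, edgeR adjusted p = 0.0286), and sorafenib minus DMSO gave 0.31 ± 0.18 (adjusted p = 0.262). Its DPBS libraries had 14.7, 21.5, 13.9 and 24.9 CPM, all below the toceranib libraries. The peptide transporter ABCB9 did not pass in any comparison.

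No ribosome-associated member was called for either drug against DMSO, though treatment took 75.4% of the variance of ABCE1 and 59.2% of that of ABCF1. ABCE1 had 222, 217, 282 and 226 CPM with sorafenib, 153, 131, 148 and 131 CPM with toceranib, and 218, 165, 149 and 215 CPM with DMSO. Sorafenib libraries were all above toceranib libraries, and neither drug passed against DMSO (adjusted p = 0.188 with sorafenib and 0.149 with toceranib). ABCF1 had 202, 231, 205 and 225 CPM with sorafenib, 230, 159, 158 and 175 CPM with toceranib, and 225, 291, 227 and 254 CPM with DMSO. It was below DMSO in each line with sorafenib (-0.22, edgeR adjusted p = 0.363), and toceranib minus DMSO gave -0.47 (adjusted p = 0.0926). ABCF2 lay at 53.6 to 91.3 CPM with toceranib and 83.2 to 104 CPM with DMSO (-0.52 ± 0.15, edgeR adjusted p = 0.0634).

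The DPBS libraries give the level in the labelled vehicle of toceranib, in cells that do not match the labelled lines. Of the 6 members called for toceranib against DMSO, ABCD4 alone was higher in every toceranib library than in every DPBS library. Toceranib above all DPBS libraries held for 2 members, ABCD4 and ABCF3 (4.11% of all genes), and toceranib below all of them for 1, ABCE1 (5.49%). DPBS above all DMSO libraries held for 4 members, ABCA7, ABCB8 and ABCG2 among them (8.58% of all genes), and DPBS below all of them for ABCF1, ABCF2 and ABCF3 (8.25%). Toceranib minus DPBS in a fit of all 16 libraries called 0 members and 0 of 15515 genes by edgeR, with 3 members at an unadjusted p under 0.05. The block of that fit was the labelled line, which the DPBS libraries do not match. Its lack of calls therefore cannot show that toceranib and DPBS were alike. In that fit ABCD4 gave 0.74 ± 0.25 (SE, adjusted p = 0.301) and ABCC5 0.28 ± 0.27 (adjusted p = 0.691). ABCA7 gave -0.40 ± 0.45, ABCG2 -0.33 ± 0.41, ABCA5 -0.53 ± 0.71 and ABCC6 -1.23 ± 1.29, the opposite sign to that against DMSO. The stromal marker sums of the DPBS libraries were 29.8, 929, 32.5 and 1053 CPM, and the part of this signal in the toceranib results was not tested beyond leaving libraries out.

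**Figure D4:**
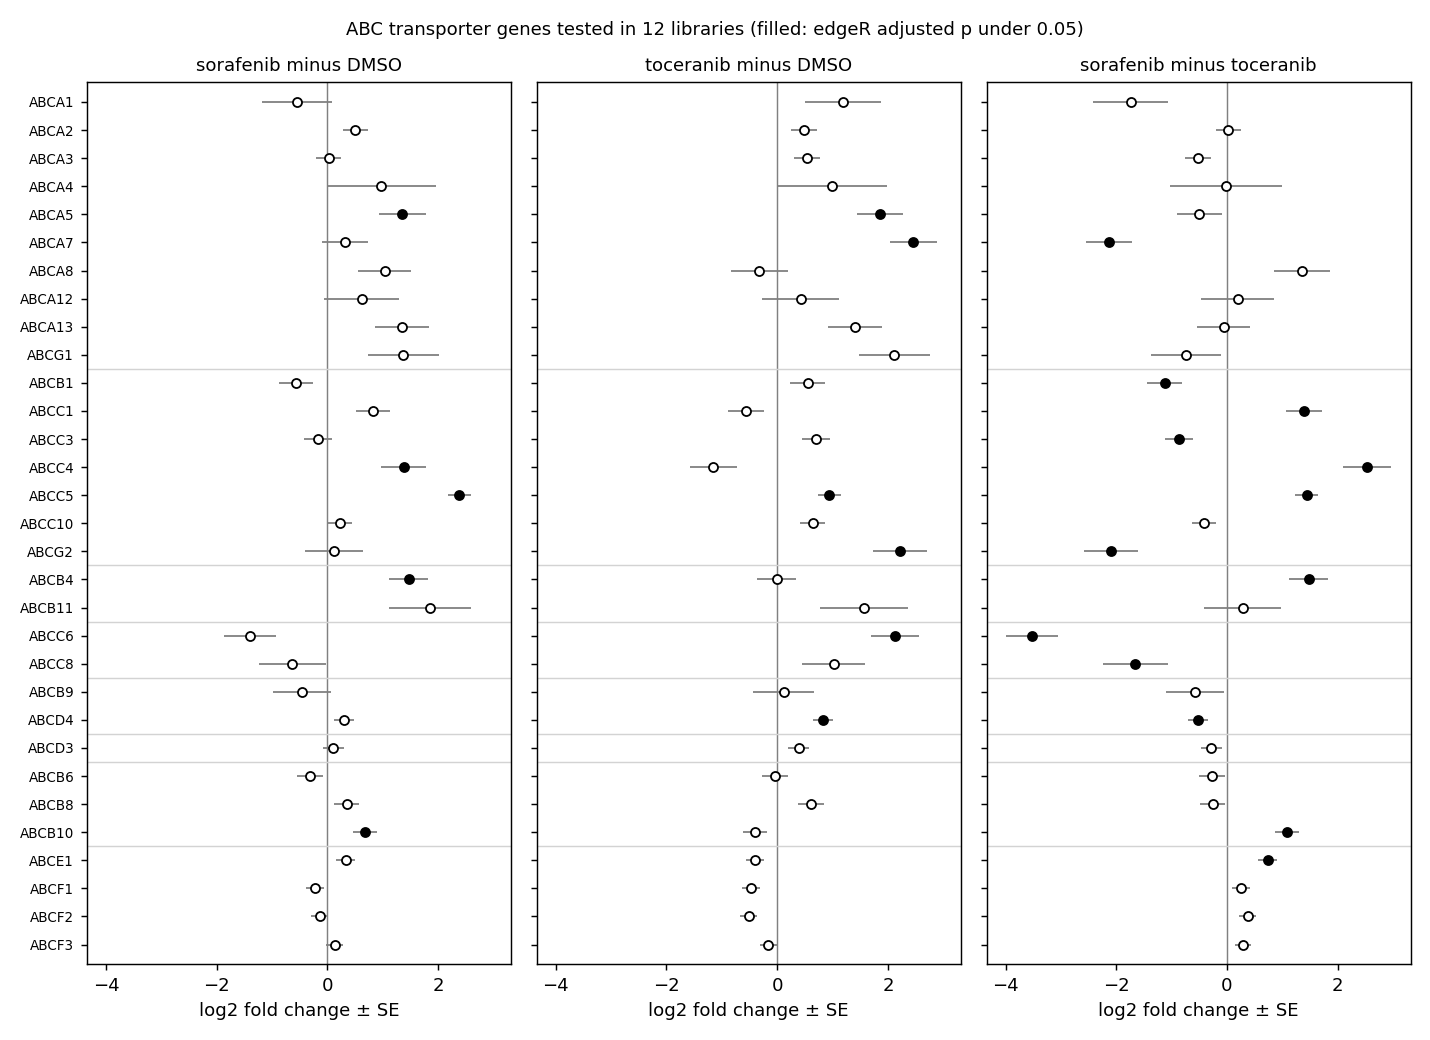
Log2 fold changes with standard errors from edgeR for 31 of the 33 tested members by role, in panels of sorafenib minus DMSO, toceranib minus DMSO and sorafenib minus toceranib, with filled marks at an adjusted p under 0.05. ABCC5 lies farthest to the right among the sorafenib calls at 2.39, and ABCA7 among the toceranib calls at 2.46.

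Sorafenib minus toceranib compares libraries that differ in drug, dose and vehicle. It called 15 of 33 members, against 38.4% of all genes, 6 higher with sorafenib (18.3% of all genes) and 9 lower (20.1%). The median was -0.28 over members and -0.05 over all genes. Cell type markers differed too, with 6 of 9 bile duct markers lower with sorafenib, SPP1 (-5.85) and CD24 (-1.98) among them, and none higher. Both tested hepatocyte markers, APOB (-2.33) and FGA (-4.84), 2 of 5 stromal markers, COL1A1 (-4.72) and ACTA2 (-5.04), and 1 of 2 endothelial markers, TIE1 (-1.28), were lower with sorafenib. Of the 2 tested leukocyte markers CD68 (3.05) was higher and CD14 (-0.59) lower, and the part of these markers in the results was not tested. Higher with sorafenib were ABCC4 (2.53 ± 0.44, edgeR adjusted p = 0.00159), ABCB4 (1.48 ± 0.35, adjusted p = 0.00770), ABCC5 (1.44 ± 0.21, adjusted p = 5.98e-04), ABCC1 (1.40 ± 0.32, adjusted p = 0.00685), ABCB10 (1.09 ± 0.21, adjusted p = 0.00296) and ABCE1 (0.74 ± 0.17, adjusted p = 0.00648). Of these, 3 are exporters of drugs and conjugates, while others of that role went the other way.

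Lower with sorafenib than with toceranib was ABCC6 by the most (-3.53 ± 0.47, edgeR adjusted p = 4.49e-04), then ABCA7 (-2.14 ± 0.42, adjusted p = 0.00284) and ABCG2 (-2.10 ± 0.48, adjusted p = 0.00662). ABCB1 (-1.13 ± 0.31, adjusted p = 0.0162) and ABCC3 (-0.87 ± 0.25, adjusted p = 0.0181) were the other exporters. ABCC8 (-1.65 ± 0.58, adjusted p = 0.0424) and ABCD4 (-0.53 ± 0.18, adjusted p = 0.0405) lay nearer the threshold. ABCC6 and ABCC1 are neighbours in the RefSeq gene order and differed in opposite directions here. Leaving out each line in turn, 7 of the 13 calls named here held all 4 times, those of ABCA7, ABCB10, ABCB4, ABCC4, ABCC5, ABCC6 and ABCE1. ABCC8 and ABCD4 held in none, and ABCB1, ABCC1, ABCC3 and ABCG2 held 1 to 3 times. The 10 tested members outside the rule for values in every library were ABCA2, ABCA4, ABCA8, ABCA12, ABCA13, ABCB6, ABCB8, ABCB9, ABCF2 and ABCF3. They passed no comparison, with log2 fold changes of -0.46 to 1.35 for sorafenib minus DMSO and -0.52 to 1.41 for toceranib minus DMSO.

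Genes that work with the transporters were listed by role, 72 in all, of which 59 were tested. With sorafenib 8 of the 59 rose (9.59% of all genes) and 6 fell (10.1%) against DMSO. The bile acid receptor NR1H4, an activator of the bile salt export pump, rose by 2.60 ± 0.58 (SE, edgeR adjusted p = 0.0117), and the aryl hydrocarbon receptor AHR by 0.64 ± 0.20 (adjusted p = 0.0449). Of the sterol genes, SREBF2 (-1.32), MYLIP (-1.002) and LPCAT3 (-1.69) fell, and the lysosomal cholesterol transporter NPC1 (1.13) rose. MYLIP and LPCAT3 are targets of the oxysterol receptors that also act on ABCA1, which did not pass. ALAS1, the first enzyme of haem synthesis (1.52 ± 0.16, adjusted p = 4.10e-04), SLC25A38 (0.77), the glutathione synthesis gene GCLC (0.78), the canalicular scaffold gene PDZK1 (1.07) and the release factor ETF1 (0.67) also rose. TAPBP, the partner of the peptide transporters TAP1 and TAP2 (-1.14), also fell. With toceranib 1 of the 59 rose against DMSO, MYLIP (1.03), against 4.31% of all genes. The 5 that fell stand against 3.15%, among them CAT (-1.03), FECH (-1.18), SLC25A38 (-0.77) and ETF1 (-0.79). TAP1, TAP2 and CFTR did not pass for either drug.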

How the data were processed

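RNA-seq libraries of 4 canine lines under 4 treatments were analysed, 16 in all. The authors deposited unnormalised read counts by gene symbol. TopHat is named per the submitters' processing notes. The TopHat version, read counter, strand setting and build were not given in the sources used here, and counts of overlapping or near-identical genes are uncertain. Each table held 39954 entries, and 500 entries sharing 89 symbols were summed by symbol. All 44 ABC symbols had 1 entry and matched the RefSeq gene table (UU_Cfam_GSD_1.0), used for names and gene order.

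edgeR 4.0.16 in R 4.3.3 fitted 12 libraries (DMSO, sorafenib, toceranib) with treatment and cell line, TMM, filterByExpr by treatment (minimum count 10) and robust quasi-likelihood, which kept 14938 genes (residual degrees of freedom 6, common dispersion 0.0807). Calls are at a Benjamini-Hochberg adjusted p under 0.05 over all tested genes. CPM use TMM over 16 libraries, and single-line differences use log2(CPM + 0.5). The labels pair libraries by cell line. Deviations from treatment means correlated at 0.753 to 0.892 within lines for sorafenib and DMSO, 0.560 to 0.797 for toceranib and DMSO, and 0.515 to 0.739 for sorafenib and toceranib, so the line entered as a block. Values of a few genes are not reported here.

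The members, gene lists and tests were chosen with earlier results of these data known. Values in every library are given for members called in any comparison, the 5 with the largest fold change per drug, the highest DMSO mean in CPM of each subfamily and well-known transporters, as CPM or, for ABCB11 and ABCC8, as reads, and for ABCC2 outside KU-cHCC-001 as a limit. DESeq2 1.42.0, upper-quartile scaling, no filter, no block, other sets of libraries and each line left out were tried.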

Additional observations from a re-analysis of the deposited data

Results flagged for a closer look

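Among the described members, 47 groups of 4 libraries were examined for a library far from the other 3, and 6 were flagged. The rule flags about 1 in 20 groups of independent replicates. Here the 4 libraries were different lines that recur in each treatment, so the 6 flags cannot be set against that rate. All 6 were KU-cHCC-001. ABCB4 stood at 88.0 CPM with sorafenib (0.584 to 1.19 CPM in the other lines), 54.9 CPM with toceranib (0.0545 to 0.358 CPM) and 46.6 CPM with DMSO (0.113 to 0.362 CPM). ABCC2 stood at 5.69 CPM with sorafenib, 43.3 CPM with toceranib and 15.8 CPM with DMSO, against at most 0.298 CPM in the other lines. Single lines also went opposite ways for ABCA1 with toceranib, where the difference from DMSO on log2(CPM + 0.5) was 3.38 in KU-cHCC-002 and -1.07 in KU-cHCC-001. With 1 library per line and treatment, that difference between lines was not tested.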

How the results depend on the processing

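Over the described members' fold changes and their alternatives, 616 values kept direction and side of the threshold, 123 kept direction but lost the call, 23 gained it and 22 changed sign. ABCC5 kept its call in all 12 alternatives for sorafenib against DMSO and against toceranib. In the order sorafenib minus DMSO, toceranib minus DMSO and sorafenib minus toceranib, the members called were 5 higher and 0 lower, 6 and 0, and 6 and 9, and all genes called were 2935, 1115 and 5737. Leaving out each line in turn, members higher ranged from 1 to 6, 0 to 12 and 6 to 7, members lower from 0 to 2, 0 to 2 and 3 to 9, and all genes from 596 to 3906, 1 to 3044 and 3017 to 6750. The causes of these shifts were not tested.

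Without the replicate block (the cell line), members higher were 1, 0 and 2, members lower in the last comparison 1, and all genes 464, 0 and 2159. There, 6 members for toceranib were higher at an unadjusted p under 0.05. Fitting all 16 libraries gave 1 higher for sorafenib and 2 for toceranib against DMSO, 5 lower for sorafenib minus toceranib, and 557 genes for toceranib. The 8 libraries compared gave 9 higher, 3 lower and 5053 genes for sorafenib, 1 higher and 129 genes for toceranib, and 5 lower for sorafenib minus toceranib. DESeq2 gave 2 lower for each drug and 2335 genes for toceranib. Upper-quartile scaling gave 2 lower and no filter 1 lower for sorafenib. Upper-quartile scaling moved the median of all genes for sorafenib minus toceranib to -0.19, against -0.05 with TMM, and split its calls into 2055 higher and 3677 lower, against 2739 and 2998. For toceranib, leaving out its KU-cHCC-005 library gave 0 higher (10 at an unadjusted p under 0.05) and 66 genes. Leaving out its KU-cHCC-004 and KU-cHCC-005 libraries, chosen after seeing the data, gave 0 higher (14 unadjusted) and 0 genes, and for sorafenib minus toceranib 2 higher, 5 lower and 2441 genes. Against DPBS in 16 libraries, with the labelled line as block, there were 0 higher (3 unadjusted) and 0 genes. Toceranib of 3 lines against DPBS without the line term, also chosen after seeing the data, gave 0 higher (6 unadjusted) and 28 genes.

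Signs changed for toceranib against DPBS in ABCA5 (-0.53 in 16 libraries, -0.66 without the line term), ABCA7 (-0.40), ABCB4 (3.60), ABCC4 (0.32), ABCC6 (-1.23), ABCF1 (0.26 and 0.13) and ABCG2 (-0.33 and -0.10). For toceranib minus DMSO, ABCB4 turned to 0.050 with upper-quartile scaling, 0.21 without the block, and ranged from -0.44 to 0.083 with a line left out, 0.14 without its KU-cHCC-005 library and 0.30 without 2 toceranib libraries. For sorafenib minus DMSO, ABCA3 turned to -0.022 with upper-quartile scaling and -0.035 without the block. With a line left out ABCA3 ranged from -0.18 to 0.32, ABCD3 from -0.0367 to 0.30 and ABCG2 from -0.41 to 0.34. Of these values, the ones called against DMSO were ABCA5, ABCA7, ABCC6 and ABCG2 with toceranib.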

Other observations

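ABCA8, whose human form takes part in cholesterol efflux, was a gene of KU-cHCC-004 and KU-cHCC-005 in the sorafenib libraries (36.1 and 33.9 CPM) and DMSO libraries (28.9 and 24.6 CPM). KU-cHCC-001 and KU-cHCC-002 had 2.64 and 0.548 CPM with sorafenib and 0.262 and 0.0603 CPM with DMSO. With toceranib, KU-cHCC-004 and KU-cHCC-005 had 9.05 and 18.1 CPM. ABCA4, the retinoid transporter of photoreceptors, had 11.2, 3.67 and 2.67 CPM with sorafenib, toceranib and DMSO in KU-cHCC-001. It also reached 2.63 CPM in toceranib of KU-cHCC-005, where DMSO had 0.442 CPM, and with DPBS it had 2.37 CPM in KU-cHCC-002 and 3.50 CPM in KU-cHCC-005.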
